A study of Mus musculus with 10 samples.

Results

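The measurement described here is a difference of differences: the response of tumour neutrophils to immunotherapy in Sox2Hi tumours minus the response in control tumours. Squamous cell carcinomas (SCC) were grown from parental cells with low Sox2, called control (GFP in the sample descriptions), or from cells with high Sox2, called Sox2Hi. The hosts of all groups were CatchupIVM-red mice, in which a red Tomato reporter is driven from the neutrophil gene Ly6g, and Tomato+ cells were isolated. The sample descriptions of all groups begin with C57, and no label says more of the strain. Tumours were naive (no treatment) or treated with anti-PDL1 and a CD40 agonist, and bulk RNA sequencing gave 3 naive and 2 treated libraries of control tumours and as many of each for Sox2Hi tumours. The labels do not give the age of the hosts or the time of treatment, and nothing says that the libraries of a group came from separate animals, so p-values measure the spread between libraries. All 10 of the 10 libraries were used. Of 55385 mouse Ensembl genes in the table, the 11274 with a mean of at least 5 CPM, which are counts scaled to library size, were tested.

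Neutrophils are short-lived granulocytes that carry preformed granules and run largely on glycolysis. Type I and type II interferons act on them through receptors and transcription factors that switch on antiviral effectors, guanylate-binding proteins and antigen presentation. In tumours, neutrophils can also take up hypoxic, glycolytic and lysosome-rich states, and NF-kB drives their cytokines and chemokines. SOX2, which maintains stem cell programmes as a transcription factor, is here raised in the tumour cells and not in the neutrophils. The design text asks whether tumour Sox2 lowers the response of neutrophils to interferons. The interaction is no direct test of this, since the treatment was anti-PDL1 and a CD40 agonist and not interferon. It compares the response to that treatment for every gene. A negative value is a smaller rise, or a larger fall, on treatment in Sox2Hi than in control tumours, in log2 units.

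The libraries held 13815734 to 22986193 counts on mouse genes. Ly6g was at 2.18, 3.50 and 1.74 CPM in naive and 17.8 and 11.4 CPM in treated control tumours, against 1.87, 2.15 and 3.19 CPM in naive and 10.3 and 5.80 CPM in treated Sox2Hi tumours. Ly6g was thus low in the naive libraries of both grafts and higher in the treated ones, with no overlap. The 20 neutrophil markers summed to between 1.75% and 2.71% of counts in naive and 3.67% and 3.83% in treated control tumours, against 1.82% and 2.49% in naive and 2.35% and 2.71% in treated Sox2Hi tumours. These shares, and those of other cell types below, are of raw library totals. On the TMM-scaled totals used for CPM, the 19 tested markers summed to 1.62% to 2.62% in naive and 5.02% and 5.24% in treated control tumours. In Sox2Hi tumours they summed to 1.54% to 2.24% in naive and 2.77% and 2.86% in treated libraries. Il1r2 was the largest member in every library, at 8455 to 19619 CPM. The median interaction of the 19 tested markers was -0.80, and its part in the results below was not tested. A lower share of neutrophils and less RNA of a gene per neutrophil cannot be told apart in bulk samples. The 14 macrophage markers summed to between 0.130% and 0.209% in naive and 0.352% and 0.392% in treated control tumours, against 0.194% and 0.263% in naive and 0.233% and 0.402% in treated Sox2Hi tumours, where replicate 2 was the higher. Lyz2, a lysozyme gene that neutrophils also express, made up most of the rise. Without it, a sum chosen after seeing the values, the other 13 were at 0.0844% to 0.121% in naive and 0.0488% and 0.0865% in treated control tumours, against 0.126% to 0.172% in naive and 0.0781% and 0.134% in treated Sox2Hi tumours. The 18 T and NK cell markers were at 0.0527% or less and the 20 keratinocyte markers at 0.118% to 0.454% in every library. The 12 B and plasma cell markers were at 0.478% in Sox2Hi naive replicate 2 and at 0.121% or less in the other 9 libraries. The 9 erythroid markers were at 0.0650% to 0.168% in naive and 0.00584% and 0.0240% in treated control tumours. In Sox2Hi tumours they were at 0.0331% to 0.0710% in naive and 0.00509% and 0.00751% in treated libraries. The part of these cells in the results was not tested. Ddx3y, a gene of the Y chromosome, was under 1 CPM in 4 libraries and at 50.9 CPM or more in the other 6, and every group held both kinds.

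Reads also fell on olfactory and vomeronasal receptor genes, which neutrophils are not known to use. Their rate per kb, taken over 1420 such genes, was used as an expected background for every gene. It corresponded to 5.02% to 8.40% of counts in naive and 1.60% and 1.73% in treated control tumours, against 3.66% to 3.91% in naive and 4.03% and 4.95% in treated Sox2Hi tumours. The scaled rate fell by 1.39 on the log2 scale with treatment in control tumours and rose by 0.59 in Sox2Hi tumours. The background itself therefore had an interaction of 1.98, and the expected share is given beside genes in which it is large.

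The interaction was called in 2228 genes (edgeR quasi-likelihood test, Benjamini-Hochberg adjusted p-value under 0.05), which is 19.8% of those tested. The response was higher in Sox2Hi in 1908 genes (16.9%) and lower in 320 (2.84%). A further 4490 genes (39.8%) were not called and had a 95% interval within 1 log2 unit of 0, so that a difference of 2-fold or more lay outside the interval. These are called alike within 2-fold below. The other 4556 genes were undecided. Lower, higher, alike and undecided are edgeR's calls below unless another tool or scaling is named. Treatment raised 2720 genes (24.1%) and lowered 3736 (33.1%) in control tumours, 57.3% together. In Sox2Hi tumours it raised 1692 (15.0%) and lowered 741 (6.57%), 21.6% together. At an unadjusted p under 0.05, 32.5% of genes passed for the interaction. The 2433 calls in Sox2Hi tumours fell to 199 without Sox2Hi treated replicate 2 and to 661 without Sox2Hi naive replicate 3.

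The split between higher and lower calls depended on the scaling, the genes tested and the test. With RLE size factors 1498 genes were higher (13.3%) and 1231 lower (10.9%), with library totals alone 2169 (19.2%) and 111 (0.985%), and with DESeq2 1647 (14.6%) and 1708 (15.1%). With edgeR's default filter, which changes the genes tested to 29648, low ones among them, and the TMM factors at once, it was 3343 (11.3%) and 4806 (16.2%). With limma-voom, another test with library weights, it was 2095 (18.6%) and 656 (5.82%). RLE, library totals, DESeq2 and the wider set of genes moved the median of the 11274 tested genes, which was 0.02, by -0.25, 0.21, -0.25 and -0.82, so the medians of gene lists below are best read against 0.02. When the 2685 genes of at least 50 CPM were scaled and tested alone, 7 were lower (0.261%), against 187 of the same genes in the fit of all tested genes, and their median moved from -0.32 to -0.04. The number of lower calls also ran from 68 without Sox2Hi treated replicate 1 to 851 without control treated replicate 2.

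Higher and lower calls differed in kind. Of the 1908 higher genes, 60.4% were annotated as protein coding and 53.8% had counts over 5 times the expected background, against 88.2% and 78.6% of all tested genes. In 1181 of them, log2 CPM correlated with the receptor-gene rate over the 10 libraries at r above 0.9, as it did in 1191 of all tested genes. These correlations share the libraries and their scaling and are given as a description. Of the 320 lower genes, 91.9% were protein coding, 98.4% were over 5 times the background, and 0 reached r above 0.5. The median interaction fell with the level of expression, from 0.63 in 3312 genes of up to 10 CPM to -0.55 in 140 genes above 1000 CPM. Among the 1510 genes with an expected background of at most 1% of counts, 112 were lower and 70 higher. Above 1000 CPM 9 genes were higher, and 8 of these carry Gm names, which mark predicted genes.

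**Figure D1:**
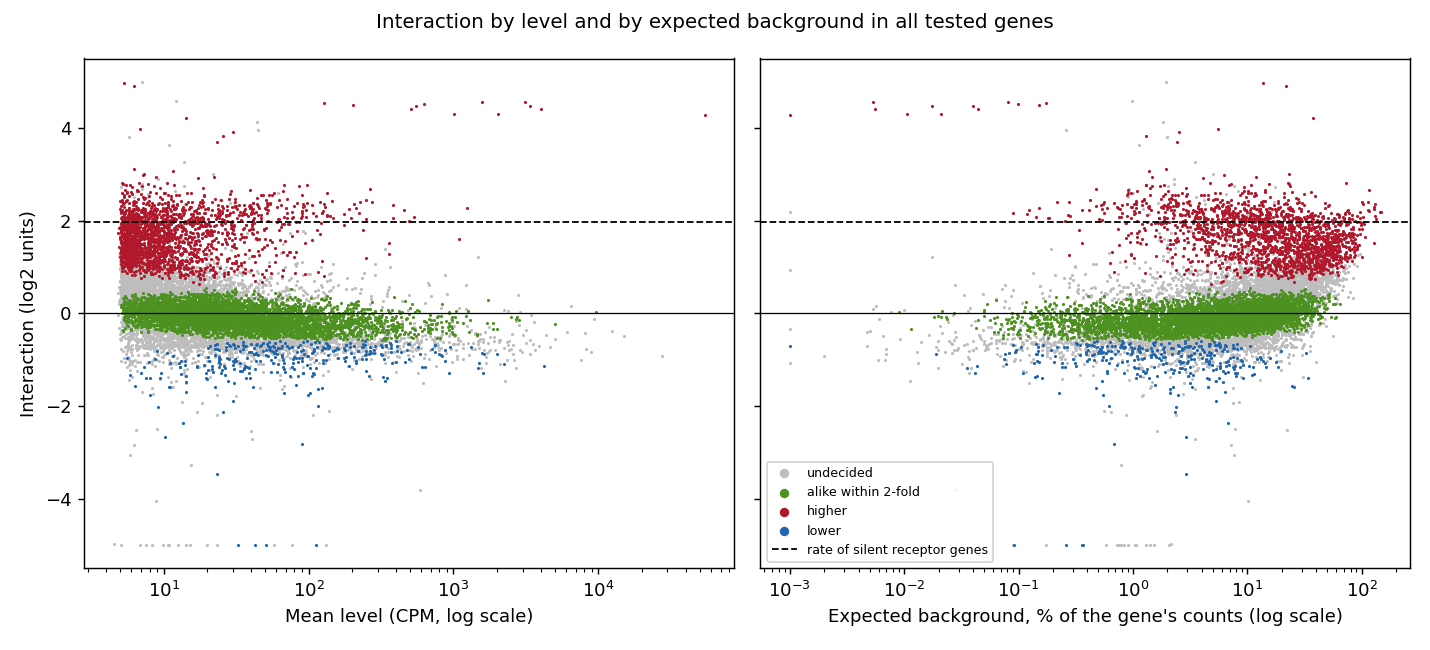
Interaction (log2 units) of each tested gene against its mean level (left, CPM, log scale) and its expected background share (right, percent, log scale), coloured by category. Values beyond 5 units are drawn at 5 and shares under 0.001% at 0.001%. Higher calls gather at low levels, at high background shares and near the dashed line at 1.98, the interaction of the receptor-gene rate, and lower calls lie at higher levels.

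The median response of the 320 lower genes was 1.16 in control tumours and 0.21 in Sox2Hi tumours, against -0.18 and 0.09 for all tested genes. The calls were chosen on this contrast, so these medians describe them and test nothing. In naive tumours the same genes had a median difference of 0.23 between Sox2Hi and control, and in treated tumours -0.65.

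Of the 45 lists of functions, which hold 1088 tested genes, 42 had a median below that of all tested genes and 14 had one below -0.5. In these 1088 genes, 69 were lower, 18 higher, 514 alike within 2-fold and 487 undecided. Their members were more highly expressed than most genes, and lower calls were more frequent at higher levels, from 0.423% of genes of up to 10 CPM to 10.1% of those of 200 to 1000 CPM and 6.43% of those above. Of the list members 6.34% were lower, against 2.84% of all genes and 5.68% of all genes in the same classes of level. That last share is given in brackets beside the counts of lists with lower members, as a percent by level, with the median of those genes where it matters. Counts of lower members differed with the scaling: with RLE factors and with library totals alone, lower members numbered 10 and 1 for hypoxia, 16 and 0 for actin, 14 and 0 for splicing, 10 and 1 for iron, 9 and 0 for autophagy, and 6 and 0 for the stress response. DESeq2 called 283 of the 1088 lower, where it called 15.1% of all tested genes lower. With limma-voom 108 were lower, where it called 5.82% of all tested genes lower. When genes of at least 50 CPM were scaled and tested alone, 2 of 691 list members were lower, in 2 of the 45 lists. The lowest medians were those of the tumour neutrophil states, suppressive effectors, glycolysis and granule proteins.

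**Figure D2:**
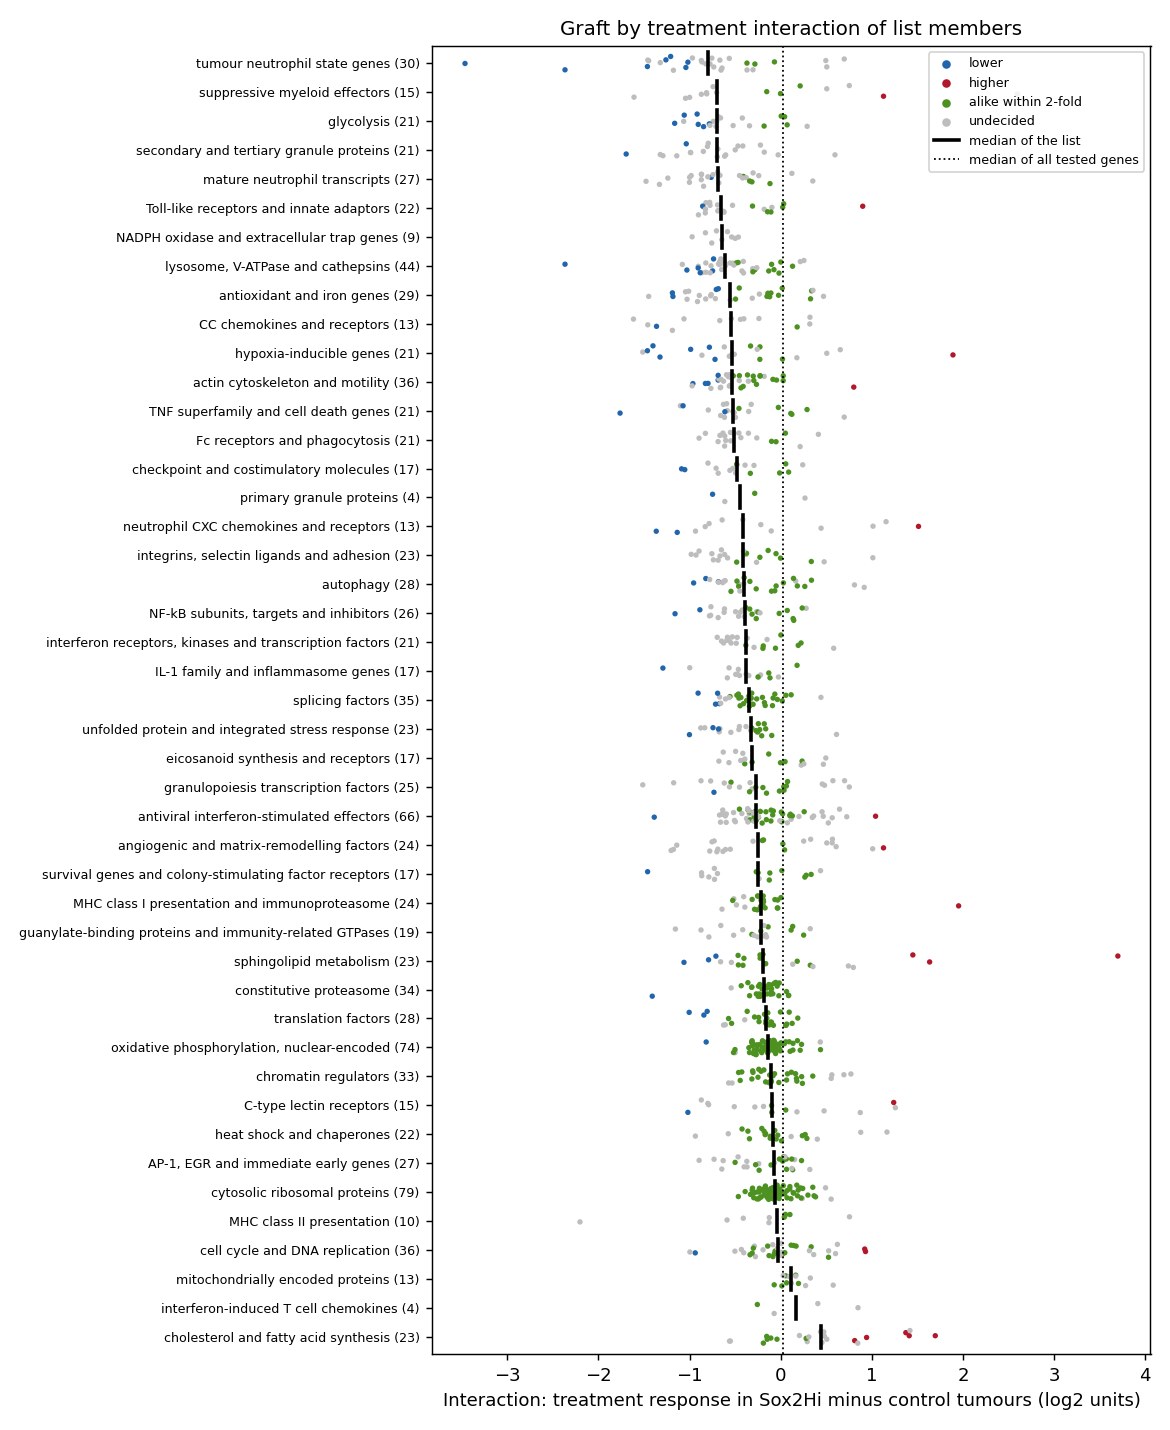
Interaction (x axis, log2 units) of every tested member of 45 gene lists, with the number of members in brackets, ordered by the list median (black bar). Blue points were called lower, red higher, green were alike within 2-fold and grey undecided; the lists at the top, from tumour neutrophil states at -0.80, lie left of the median of all tested genes at 0.02, and ribosomal proteins at -0.06 lie close to it.

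Among called genes of at least 20 CPM, the largest lower responses belonged to single genes of varied function. Immunoglobulin, Gm, Rik and clone names were left out of this ranking. Car4 (ENSMUSG00000000805, chr11:84957786-84966044 in GRCm38), a carbonic anhydrase anchored at the cell surface, was at 8.30, 3.15 and 4.35 CPM in naive and 103 and 63.5 CPM in treated control tumours, against 13.2, 7.72 and 5.87 CPM in naive and 9.56 and 16.0 CPM in treated Sox2Hi tumours. Only the control treated libraries were high, and no library of the other 3 groups exceeded 16.0 CPM. Car4 rose by 3.97 on the log2 scale in control tumours (adjusted p 0.00013), against 0.51 in Sox2Hi tumours (adjusted p 0.39). The interaction was -3.46 (SE 0.62, edgeR adjusted p 0.0025), and it was called in all 10 fits that left out a library.

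Il23a, the p19 subunit of the cytokine IL-23, was at 88.1, 68.8 and 65.0 CPM in naive and 173 and 269 CPM in treated control tumours, against 141, 108 and 87.3 CPM in naive and 84.2 and 83.8 CPM in treated Sox2Hi tumours. The control treated libraries again stood above all others, and the Sox2Hi treated libraries lay below all 3 Sox2Hi naive ones. The interaction of Il23a was -2.0 (SE 0.34, adjusted p 0.002). Tnf, the gene of tumour necrosis factor, was at 72.5, 74.2 and 47.8 CPM in naive and 229.8 and 186 CPM in treated control tumours, against 107, 73.1 and 51.7 CPM in naive and 79.6 and 66.3 CPM in treated Sox2Hi tumours. It rose by 1.68 in control tumours and its response was -0.08 in Sox2Hi tumours, an interaction of -1.76 (SE 0.41, adjusted p 0.01).

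Others of the 10 largest lower responses with a mean of at least 20 CPM were Ypel3 (-2.13), a yippee-family protein, Tmem151a (-1.89), a transmembrane protein, and Tinagl1 (-1.71), a secreted matrix protein. Mfsd14a (-1.63), a transporter-family membrane protein, had the smallest adjusted p of these, 0.00083, with 62.0, 63.6 and 73.1 CPM in naive and 216 and 227 CPM in treated control tumours, against 97.6, 98.5 and 105 CPM in naive and 94.5 and 123 CPM in treated Sox2Hi tumours. Its Sox2Hi naive libraries were above its control naive ones, and its control treated libraries were highest. Gadd45a (-1.62), a growth-arrest gene induced by stress, was called in 9 of 10 fits without a library, and Irf2bpl (-1.59), a nuclear regulator, in 10. Ccr3, the eotaxin receptor best known from eosinophils, differed in pattern. It fell by 2.04 in Sox2Hi tumours and had a response of -0.45 in control tumours (adjusted p 0.29), and its interaction of -1.59 was called in 5 of 10 such fits.

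**Figure D3:**
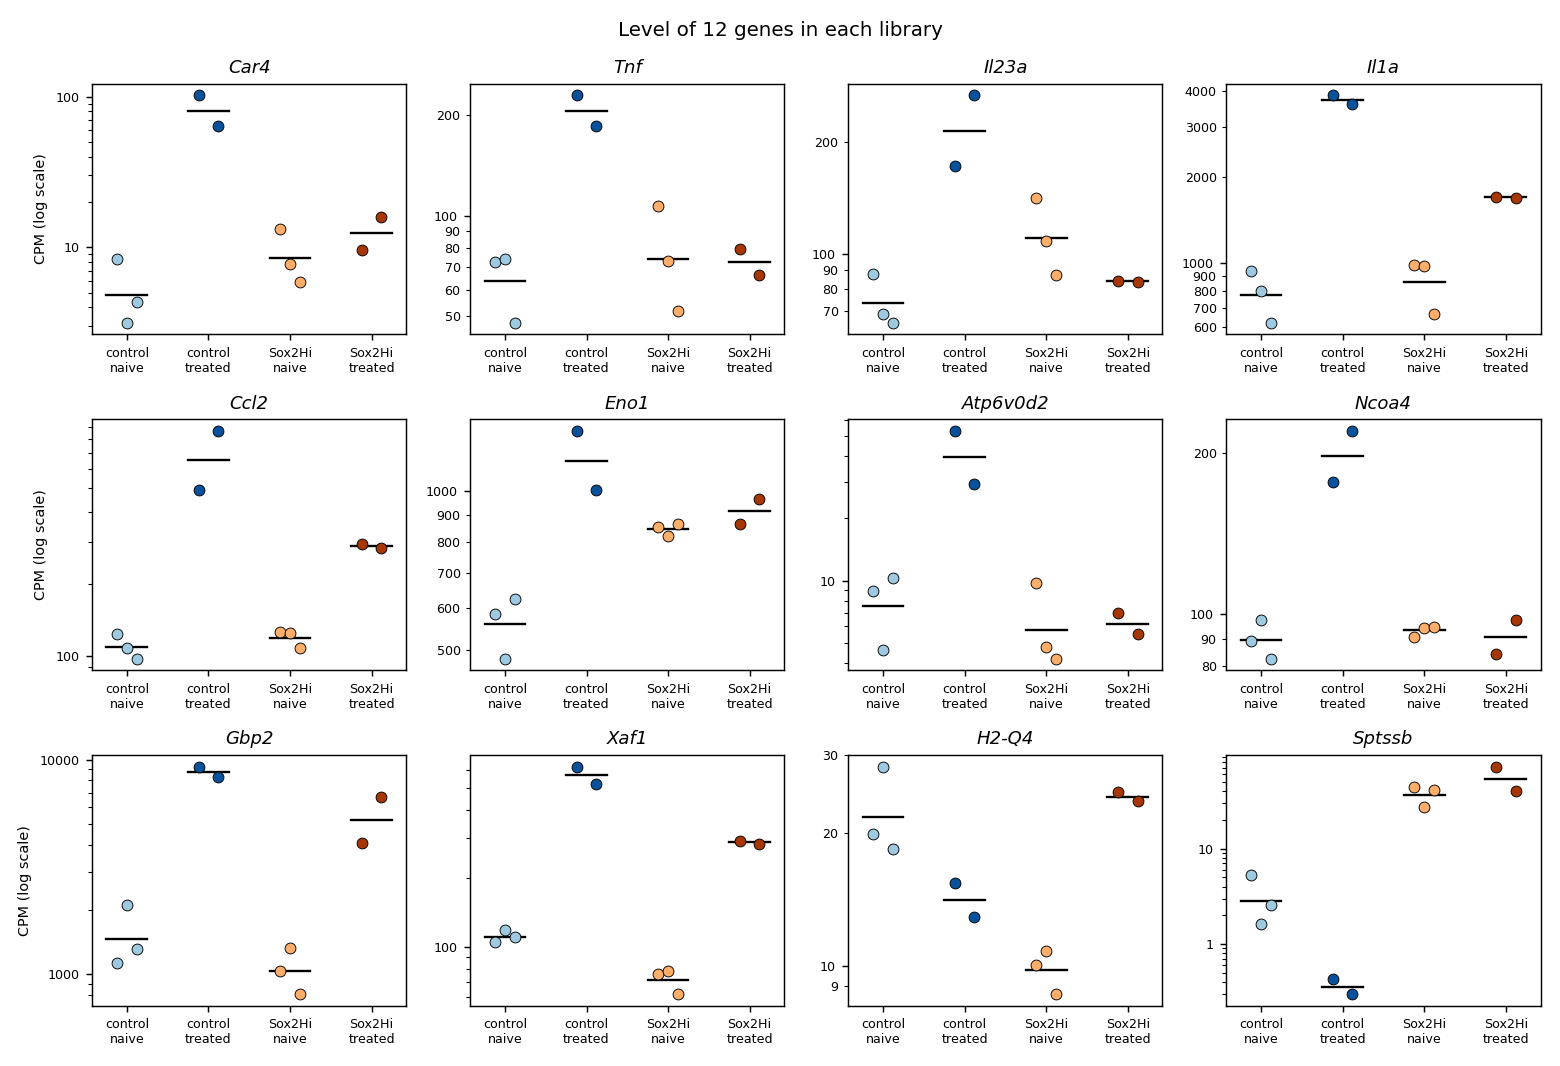
CPM (log axis) of 12 genes in each of the 10 libraries, with points for libraries and bars for the geometric mean of a group. In the upper 8 panels, from Car4 to Ncoa4, the 2 control treated libraries lie above all other libraries of the gene; Gbp2 and Xaf1 rise in both grafts; H2-Q4 is lower on treatment in control and higher in Sox2Hi tumours; Sptssb is high in every Sox2Hi library.

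Some genes of tumour neutrophil states had lower responses in Sox2Hi tumours. Of 30 tested members 7 were lower, or 23.3% (5.91% by level), none was higher, 3 were alike and 20 undecided by edgeR. DESeq2 called 19 lower (63.3%, against 15.1% of all genes). With limma-voom 9 were lower (30.0%, against 5.82% of all genes) and 1 higher. The median response was 1.02 in control and 0.09 in Sox2Hi tumours, with a median interaction of -0.80. Genes of the same level classes had a median of -0.32. In control tumours 21 members rose and 3 fell, and in Sox2Hi tumours 8 rose and none fell. Besides Car4, the called members included Tnfrsf23, a decoy receptor for the death ligand TRAIL (-1.26, adjusted p 0.011), and Ero1l, an oxidase of the endoplasmic reticulum. Ero1l was at 151, 108 and 129 CPM in naive and 852 and 698 CPM in treated control tumours, against 264, 158 and 153 CPM in naive and 362 and 473 CPM in treated Sox2Hi tumours. Both treated groups lay above both naive groups, and the Sox2Hi treated libraries reached 362 and 473 CPM against 852 and 698 in control, an interaction of -1.46 (SE 0.36, adjusted p 0.015). The most abundant members were not called: Cd14, a co-receptor for lipopolysaccharide, at -0.78 (adjusted p 0.15), and Spp1, which encodes osteopontin, at -1.18 (adjusted p 0.075). With RLE factors 16 members were lower and with library totals alone 5, where 1 was higher, and in the fit on genes of at least 50 CPM 0 of 21.

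Lysosomal genes included 6 lower members of 44 tested (13.6%, 7.05% by level) and none higher by edgeR. Of these, 4 encode subunits of the V-ATPase, the pump that acidifies lysosomes. The d2 subunit Atp6v0d2 (ENSMUSG00000028238, chr4:19876841-19922605) was at 8.90, 4.62 and 10.2 CPM in naive and 52.9 and 29.2 CPM in treated control tumours, against 9.69, 4.80 and 4.20 CPM in naive and 6.95 and 5.52 CPM in treated Sox2Hi tumours. Its 2 control treated libraries lay above the rest, and Sox2Hi naive and treated libraries overlapped. The interaction was -2.37 (SE 0.59, adjusted p 0.016) and was called in 10 of 10 fits without a library. The proteolipid subunit Atp6v0c had responses of 1.32 in control and 0.41 in Sox2Hi tumours (-0.91, adjusted p 0.017). The abundant cathepsins were undecided. Ctss, a cysteine protease of antigen processing, rose by 1.72 in control and 1.31 in Sox2Hi tumours, and Ctsc, which activates granule proteases, by 1.92 and 1.31.

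The number of lower lysosomal genes was 23 with RLE factors, 2 with library totals alone, and 0 of 33 in the fit on genes of at least 50 CPM. Autophagy genes followed with 3 lower of 28 (10.7%, 3.94% by level): Atg3, the conjugating enzyme of the LC3 family (-0.96), Rb1cc1, a subunit of the initiating kinase complex (-0.68), and Gabarap, a member of the LC3 family (-0.82). Map1lc3b, which encodes LC3B, rose by 1.18 and 0.57 and was not called (adjusted p 0.14).

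Glycolysis genes included 6 lower members of 21 (28.6%, 6.05% by level) and none higher by edgeR. These were Gpi1, Aldoa, Gapdh, Eno1, Pkm and Ldha, enzymes of steps between glucose-6-phosphate and lactate, of which Gpi1, Gapdh and Ldha are named after their values were seen, at -0.78, -0.85 and -0.90. Enolase 1 (Eno1) was at 584, 482 and 625 CPM in naive and 1299.9 and 1003 CPM in treated control tumours, against 854, 821 and 867 CPM in naive and 868 and 966 CPM in treated Sox2Hi tumours. Its Sox2Hi naive libraries were above all 3 control naive libraries and just below the Sox2Hi treated ones, which in turn lay below the control treated ones. Aldolase A (Aldoa) was at 289, 207 and 315 CPM in naive and 817 and 599 CPM in treated control tumours, against 471, 409.7 and 428 CPM in naive and 538 and 559 CPM in treated Sox2Hi tumours. Here too the naive libraries of the grafts did not overlap, and both Sox2Hi treated libraries lay below both control treated ones. The interactions were -0.92 for Eno1 (SE 0.24, adjusted p 0.021), -1.06 for Aldoa (SE 0.28, adjusted p 0.023) and -1.16 for the pyruvate kinase Pkm (SE 0.33, adjusted p 0.029).

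The list rose by a median of 1.04 in control and 0.33 in Sox2Hi tumours, and its naive level differed by a median of 0.21 between the grafts. Hk2, a hexokinase at the entry of the pathway, responded alike: it rose by 1.03 in control (adjusted p 0.0016) and 1.03 in Sox2Hi tumours (adjusted p 0.0077), with an interval of the difference from -0.62 to 0.63. Hk1, another hexokinase, was also alike (0.07), and was called lower with TMM factors from 29648 genes (-0.75) and from all genes with a count (-0.96). With RLE factors 9 glycolysis genes were lower, with library totals alone 0, and in the fit on genes of at least 50 CPM 0 of 13.

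Genes induced by hypoxia overlapped in pattern, with 6 lower of 21 (28.6%, 5.34% by level) and 1 higher. Ankrd37, an ankyrin-repeat gene induced by low oxygen, was at 17.7, 11.5 and 14.7 CPM in naive and 78.2 and 105 CPM in treated control tumours, against 26.3, 13.6 and 15.9 CPM in naive and 47.0 and 41.3 CPM in treated Sox2Hi tumours. It rose in both grafts without overlap between naive and treated libraries, by 2.65 and 1.24, and the interaction was -1.40 (SE 0.40, adjusted p 0.029). Hilpda, a lipid droplet protein, had an interaction of -0.99 (adjusted p 0.046), and Bnip3, a receptor of mitophagy, one of -1.51 that was not called (adjusted p 0.061). The exception was Plod2, a collagen lysyl hydroxylase, which fell by 2.89 in control tumours and had a response of -1.0 in Sox2Hi tumours (adjusted p 0.056), an interaction of 1.89 (adjusted p 0.021). The 13 fibroblast markers moved likewise. They summed to between 0.0626% and 0.179% of counts in naive and 0.0143% and 0.0163% in treated control tumours, against 0.122% and 0.178% in naive and 0.0198% and 0.0677% in treated Sox2Hi tumours. Expected background was 20% of the reads of Plod2. The part of either in its result was not tested.

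Promoters of 2 lower genes and of 2 interferon genes described further on are printed to show the motifs that the lists share. Sequences are from RefSeq (GRCm38.p6) and cover the 250 bases before a transcription start, 5′ to 3′ on the gene's strand. Capitals mark ACGTG, the core of the hypoxia response element, or GAAA, any 2 bases and GAAA again, the core of the interferon-stimulated response element, on either strand. Aldoa is shown at chr7:126799255-126799504 (minus strand), 1 of its 3 promoters in the table, with a match starting 126 bases before the start. Ankrd37 is at chr8:45999851-46000100 (minus strand), with matches at 241 and 6 bases.
Aldoa: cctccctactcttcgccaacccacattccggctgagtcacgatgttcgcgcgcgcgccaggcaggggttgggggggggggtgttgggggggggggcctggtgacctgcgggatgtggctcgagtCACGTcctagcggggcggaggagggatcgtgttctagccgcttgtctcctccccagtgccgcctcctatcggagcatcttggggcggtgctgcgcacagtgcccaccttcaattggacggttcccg
Ankrd37: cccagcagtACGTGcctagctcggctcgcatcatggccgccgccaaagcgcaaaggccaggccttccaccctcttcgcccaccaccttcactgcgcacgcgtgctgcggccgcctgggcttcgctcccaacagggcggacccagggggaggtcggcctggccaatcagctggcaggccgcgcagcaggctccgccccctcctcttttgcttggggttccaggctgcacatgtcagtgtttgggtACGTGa
Of 17 hypoxia genes with a promoter in the table, 14 held ACGTG (82.4%), as did 10 of 20 glycolysis genes (50%), against 18.5% of all 27025 genes with a promoter and 24.4% of 8196 tested genes. Among the lower genes, 74 of 228 held it (32.5%). A match is a description of these letters and not a binding site.

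Several inflammatory genes also had smaller responses in Sox2Hi tumours. Il1a, which encodes interleukin 1 alpha, was at 939.8, 799.6 and 619 CPM in naive and 3883 and 3609.8 CPM in treated control tumours, against 987, 977 and 665 CPM in naive and 1712 and 1697 CPM in treated Sox2Hi tumours. The Sox2Hi treated libraries lay between the naive and the control treated ones. Il1a rose by 2.25 in control and 0.96 in Sox2Hi tumours, an interaction of -1.29 (SE 0.32, adjusted p 0.014), and it was the 1 lower gene of 17 in the IL-1 and inflammasome list (5.88%, 5.50% by level). Of its relatives, Il1b rose by 1.04 and 0.92 and was alike within 2-fold (interval -0.97 to 0.74), as was Casp1, the inflammasome protease, at 1.5 and 1.37. Il1r2, the decoy receptor for interleukin 1, showed -0.38 and was undecided.

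In the TNF and cell death list 3 of 21 members were lower (14.3%, 4.33% by level). Besides Tnf, these were Cflar and Bax. Cflar, an inhibitor of caspase-8, was at 132, 129 and 122 CPM in naive and 409.7 and 409 CPM in treated control tumours, against 173, 153 and 137 CPM in naive and 199.7 and 271 CPM in treated Sox2Hi tumours. Its control treated libraries were about level with each other and above both Sox2Hi treated ones, and the interaction was -1.07 (SE 0.23, adjusted p 0.0072). Bax, which permeabilises mitochondria in apoptosis, had -0.61 (adjusted p 0.044). The NF-kB list held 2 lower of 26 (7.69%, 5.21% by level), both feedback inhibitors: Tnfaip3, which encodes A20 (-0.89, adjusted p 0.025), and its partner Tnip1 (-1.16, adjusted p 0.043). Nfkbia, the gene of the inhibitor IkB alpha, and Ptgs2, the inducible prostaglandin synthase, were not called, at -0.78 and -0.49. Irak2, a kinase downstream of Toll-like receptors, was the 1 lower gene of 22 in that list (4.55%, 4.01% by level), at -0.86 (adjusted p 0.034). DESeq2 called 10 of the 22 lower (45.5%, against 15.1% of all genes). Tlr3, a sensor of double-stranded RNA with 22.1% expected background, was the 1 higher by edgeR, at 0.90 (adjusted p 0.048).

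In the lists of chemokines and chemoattractant receptors 3 genes were lower, and Ccr3, described above, is in neither list. Ccl2, which attracts monocytes and was the 1 lower of 13 in the CC list (7.69%, 6.25% by level), was at 124, 108 and 97.7 CPM in naive and 493 and 869 CPM in treated control tumours, against 126, 125 and 108 CPM in naive and 295 and 283 CPM in treated Sox2Hi tumours. Naive levels of the grafts overlapped, and the 2 Sox2Hi treated libraries lay between the naive and the control treated ones. Its interaction was -1.36 (SE 0.31, adjusted p 0.0092). Among neutrophil chemokines and their receptors 2 of 13 were lower (15.4%, 5.51% by level): Cxcl1, a ligand of CXCR2, which rose by 0.81 in control tumours and had -0.33 in Sox2Hi tumours (adjusted p 0.26), and Fpr1, the formyl peptide receptor. Fpr1 was at 156, 167 and 114 CPM in naive and 957 and 813 CPM in treated control tumours, against 187, 123 and 104 CPM in naive and 355 and 295 CPM in treated Sox2Hi tumours, so that the treated libraries of the grafts were far apart while the naive ones overlapped (-1.37, SE 0.35, adjusted p 0.019). Abundant members were not called, among them Cxcl2 (-0.83, adjusted p 0.1), another CXCR2 ligand, Ccl3 (-1.46, adjusted p 0.056), the chemokine MIP-1 alpha, and its receptor Ccr1 (-0.67, adjusted p 0.2). Cxcl12, a stromal chemokine with 40.1% expected background, was the 1 higher member, at 1.51 (adjusted p 0.024).

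Checkpoint genes included 2 lower of 17 (11.8%, 5.26% by level). Lilrb4a, an inhibitory receptor, rose by 1.53 in control tumours and had 0.44 in Sox2Hi tumours, which did not pass (adjusted p 0.15, interaction -1.09, adjusted p 0.028). Pdcd1lg2, the gene of PD-L2, rose by 2.06 and 1.01 (-1.05, adjusted p 0.035). Cd274, the gene of PD-L1, whose protein the antibody binds, was at 229.8, 291 and 215 CPM in naive and 1725 and 1241 CPM in treated control tumours, against 239.9, 213 and 161 CPM in naive and 805 and 967 CPM in treated Sox2Hi tumours. It rose without overlap in both grafts, by 2.60 and 2.12, and the difference was undecided (-0.48, interval -1.17 to 0.21, adjusted p 0.32). Clec5a, a C-type lectin that signals through DAP12, was the 1 lower gene of 15 lectin receptors (6.67%, 4.18% by level), at -1.02 (adjusted p 0.045), and Klrb1b, an inhibitory receptor of natural killer cells, the 1 higher, at 1.24 (adjusted p 0.03). With RLE factors 2 of the 15 were lower, and with library totals alone 0.

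Granule and maturation genes had low medians and few calls by edgeR, and more by DESeq2. Secondary and tertiary granule genes rose by a median of 2.04 in control and 1.26 in Sox2Hi tumours (interaction -0.70, level classes -0.32). By edgeR 2 of 21 were lower (9.52%, 5.56% by level), 19 undecided and 0 alike, while DESeq2 called 8 lower (38.1%, against 15.1% of all genes). The 2 by edgeR were Cd177, a surface antigen of neutrophils (-1.70, adjusted p 0.021), and Olfm4, a granule protein of a neutrophil subset (-1.04, adjusted p 0.04). The calprotectin gene S100a8 was at 1900.4, 1910.0 and 1218 CPM in naive and 10217 and 7539 CPM in treated control tumours, against 1774, 1151 and 914 CPM in naive and 3834 and 3582 CPM in treated Sox2Hi tumours. Both treated groups were above both naive groups and did not overlap each other, yet the spread left the interaction of -0.87 undecided (interval -1.80 to 0.06, adjusted p 0.18). S100a9, its partner, gave -1.0 (adjusted p 0.11), and Lyz2, the lysozyme of myeloid cells, -0.85 (adjusted p 0.25).

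Mature neutrophil transcripts had 1 lower gene of 27 (3.70%, 6.90% by level), Cd24a, a surface sialoglycoprotein (-0.76, adjusted p 0.042), at a median interaction of -0.69, while DESeq2 called 13 of them lower, against 15.1% of all genes. The receptor for granulocyte colony-stimulating factor, Csf3r, was at -0.87 (adjusted p 0.15) and the chemokine receptor Cxcr2 at -0.22 (adjusted p 0.77), both undecided, as was Anxa1, an anti-inflammatory annexin (-0.03). All 9 NADPH oxidase and trap genes were undecided with a median of -0.65, 2 of them at an unadjusted p under 0.05. DESeq2 called 4 lower (44.4%, against 15.1% of all genes) and limma-voom 2 (22.2%, against 5.82%). The oxidase subunits Cyba and Cybb rose by 1.96 and 2.31 in control and by 1.20 and 1.81 in Sox2Hi tumours. Fcer1g, the signalling chain of Fc receptors, showed -0.61 in a list of 21 with 0 calls by edgeR and a median of -0.51. Of these 21, 1 had an unadjusted p under 0.05. DESeq2 and limma-voom each called 3 lower (14.3%, against 15.1% and 5.82% of all genes). Among survival genes and transcription factors of granulocytes, 1 of 17 (5.88%, 5.39% by level) and 1 of 25 (4.0%, 5.75% by level) were lower. These were Bcl2l1, which encodes the anti-apoptotic BCL-XL (-1.46, adjusted p 0.033), and Bhlhe40, a stress-induced repressor (-0.73, adjusted p 0.03). With library totals alone 0 of 17 and 0 of 25 were lower, and with RLE factors 3 and 6. Tgfb1, the cytokine TGF-beta 1, was the 1 higher gene of 15 suppressive effectors (6.67%, against 16.9% of all genes), at 1.13 (adjusted p 0.039). That list had 0 lower by edgeR and a median of -0.70, with 6 at an unadjusted p under 0.05. DESeq2 called 5 of its members lower (33.3%, against 15.1% of all genes) and 0 higher. The neutrophil marker sums given above move in the same direction as these lists and share genes with them.

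**Figure D4:**
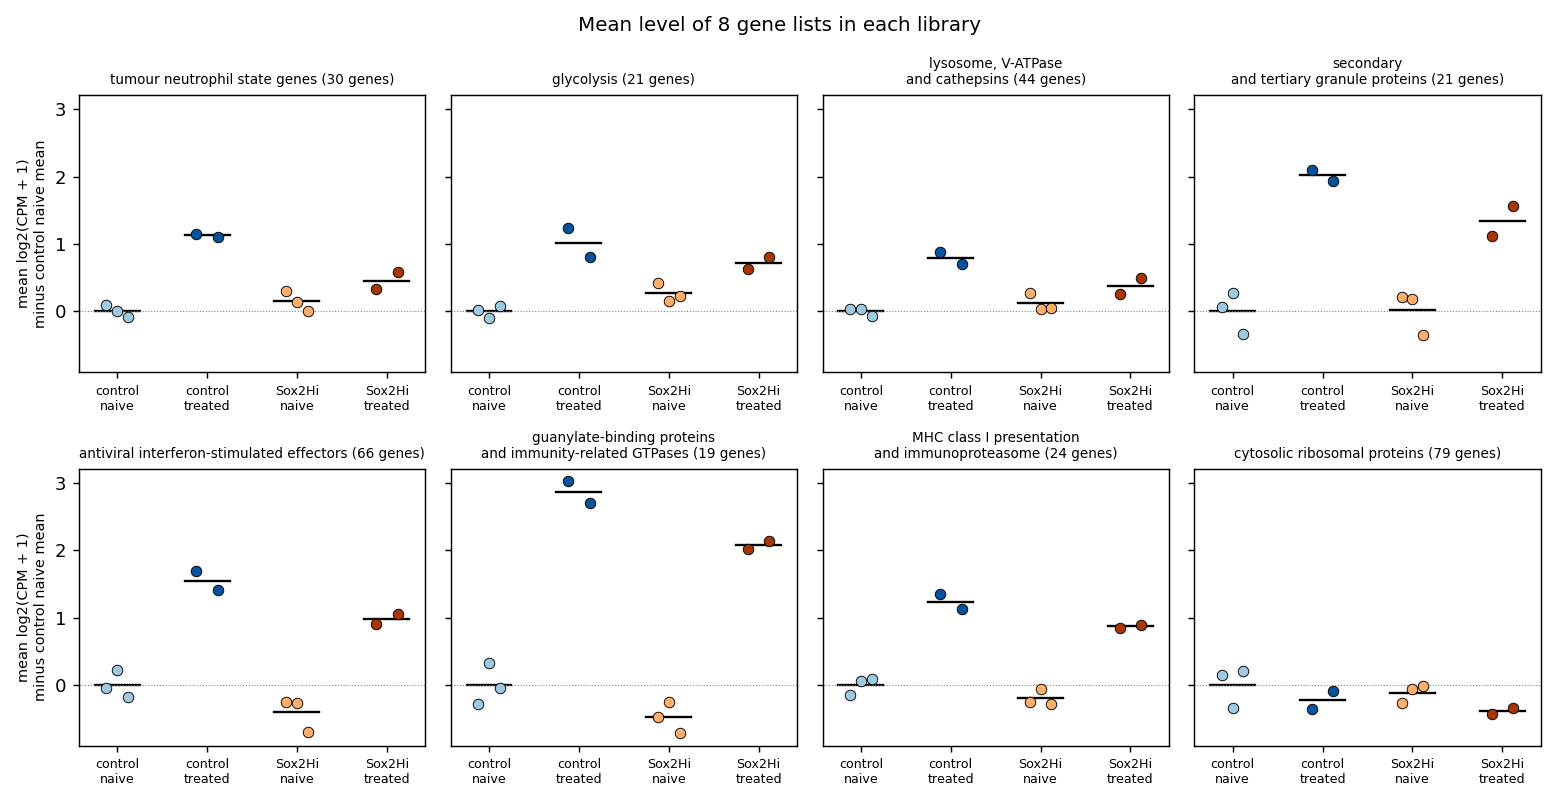
Mean log2(CPM + 1) of the tested members of 8 lists in each library (points), minus the mean of the control naive libraries, with group means as bars. In the upper row the Sox2Hi treated libraries lie below the control treated ones apart from glycolysis, where 1 library of each overlaps; in the antiviral list both naive and treated libraries of Sox2Hi lie below those of control, and in the GTPase and class I lists the naive libraries overlap.

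Several genes of stress and RNA handling were lower as well. In the integrated stress response list 3 of 23 were lower (13.0%, 5.27% by level). Ddit3, the stress transcription factor CHOP, was at 80.8, 67.1 and 63.2 CPM in naive and 287 and 286 CPM in treated control tumours, against 78.9, 61.1 and 61.6 CPM in naive and 148 and 125 CPM in treated Sox2Hi tumours. Its naive libraries overlapped between the grafts and its Sox2Hi treated libraries lay between those and control treated (-1.0, SE 0.24, adjusted p 0.013). Atf4, the factor upstream of it, gave -0.74 (adjusted p 0.024) and Herpud1, of protein degradation at the endoplasmic reticulum, -0.68 (adjusted p 0.046). The chaperone Hspa5 showed -0.67 and was not called. Of translation factors 3 of 28 were lower (10.7%, 6.89% by level) and 22 alike: Eif4ebp1, a repressor of cap-dependent translation and a target of ATF4 (-1.0, adjusted p 0.0067), the helicase Eif4a2 (-0.81) and Eif1, which guides start codon choice (-0.84). Splicing factors had 4 lower of 35 (11.4%, 6.32% by level) and 25 alike, among the lower Srsf7 (-0.71), Hnrnpc (-0.69) and Srsf5 (-0.91).

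Iron and antioxidant genes held 4 lower of 29 (13.8%, 5.94% by level). Ncoa4, the cargo receptor that delivers ferritin to lysosomes, was at 89.3, 97.5 and 82.7 CPM in naive and 177 and 220.1 CPM in treated control tumours, against 90.8, 94.5 and 94.8 CPM in naive and 84.2 and 97.5 CPM in treated Sox2Hi tumours. Only the control treated libraries were high, and the Sox2Hi treated libraries lay within or near the naive range, giving -1.18 (SE 0.21, adjusted p 0.0026), called in all 10 fits without a library. Tfrc, the transferrin receptor (-0.68, adjusted p 0.049), and Gclm, of glutathione synthesis (-1.19, adjusted p 0.0496), were called in 3 and 3 of those fits. The ferritin chains were not called: Fth1 rose by 1.91 and 1.09, and Ftl1 by 1.60 in control with 0.59 in Sox2Hi tumours (adjusted p 0.1). Actin and motility genes had 5 lower of 36 (13.9%, 7.01% by level) and 1 higher. Named examples of the lower ones are Msn, the linker moesin (-0.83), and the capping and severing proteins Capg (-0.80) and Gsn (-0.96). Beta-actin itself, Actb, was alike within 2-fold (0.03, interval -0.59 to 0.65), and was called lower (-0.79) with TMM factors from 29648 genes. Tmsb4x, which binds actin monomers, was undecided (-0.56).

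Most antiviral interferon-stimulated genes rose in both grafts, and the difference in response was called in few of them. Antiviral effectors rose by a median of 1.55 in control and 1.39 in Sox2Hi tumours. There 62 and 58 of 66 members rose, against 24.1% and 15.0% of all tested genes. The interaction was called lower in 1 member (1.52%, 5.60% by level, against 2.84% of all genes). It was called higher in 1 (1.52%, against 8.29% higher by level and 16.9% of all genes). DESeq2 called 4 lower (6.06%, against 15.1% of all genes) and 1 higher. By edgeR, 24 were alike within 2-fold (36.4%, against 39.8% of all tested genes) and 40 were undecided. The median interaction was -0.27, with -0.29 for genes of the same level classes. Over the alternatives the median ran from -1.29 in the fit of all genes with a count to -0.0096 in the fit on genes of at least 50 CPM, and over fits without a library from -0.56 to -0.14. Levels differed between the grafts in both states: the median Sox2Hi minus control difference was -0.46 in naive and -0.62 in treated tumours, against -0.05 and 0.04 for all tested genes. These 2 medians are not tested here.

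Xaf1, an interferon-induced regulator of apoptosis, was at 104, 118 and 110.0 CPM in naive and 618 and 518 CPM in treated control tumours, against 75.5, 78.4 and 61.7 CPM in naive and 291 and 283 CPM in treated Sox2Hi tumours. Both treated groups were several times above their naive groups, and Sox2Hi libraries were below control libraries in both states without overlap. It rose by 2.36 and 2.00, with an interaction of -0.36 (interval -0.84 to 0.12, adjusted p 0.29). Isg15, a ubiquitin-like antiviral protein, was at 581, 951 and 558 CPM in naive and 2572 and 3132 CPM in treated control tumours, against 485, 577 and 361 CPM in naive and 1381 and 1832 CPM in treated Sox2Hi tumours. Treated libraries again lay above naive ones and Sox2Hi treated below control treated, while the naive libraries of the grafts overlapped. Isg15 rose by 2.03 and 1.76, and its interaction of -0.27 was undecided (interval -1.13 to 0.58). Ifit3, which binds viral RNA together with its relatives, rose by 1.74 and 1.46, Irf7, a factor that amplifies type I interferon, by 1.92 and 1.33, and Ifi35 by 1.29 and 0.84. Of the membrane restriction factors, Ifitm2 was alike (-0.34) and Ifitm1 undecided (-0.60).

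Exceptions were 2 Schlafen genes, which have close paralogs among which reads could be split. Slfn2, a regulator of leukocyte quiescence, rose by 1.97 in control tumours and had 0.58 in Sox2Hi tumours (adjusted p 0.092, interaction -1.39, SE 0.34, adjusted p 0.013). Slfn9 fell by 0.54 in control tumours and had 0.50 in Sox2Hi tumours (1.04, adjusted p 0.011), with 5.70% expected background.

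Guanylate-binding proteins and immunity-related GTPases, which attack intracellular pathogens, all rose in both grafts, 19 of 19, by a median of 2.61 in control and 2.35 in Sox2Hi tumours. The interaction was called in 0 of 19 by edgeR, where by level 7.17% of genes were lower and 6.15% higher. Of the 19, 6 were alike (31.6%, against 39.8% of all genes) and 13 undecided. At an unadjusted p under 0.05 edgeR gave 1. DESeq2 called 2 lower (10.5%, against 15.1% of all genes) and limma-voom 1 (5.26%, against 5.82%). Gbp2 (ENSMUSG00000028270, chr3:142620602-142638008) was at 1133, 2106 and 1307 CPM in naive and 9268 and 8309 CPM in treated control tumours, against 1035, 1327 and 808 CPM in naive and 4079 and 6701 CPM in treated Sox2Hi tumours. Naive libraries of the grafts overlapped and the Sox2Hi treated libraries were below the control treated ones, and its rises of 2.54 and 2.35 left the difference undecided (-0.18, interval -1.17 to 0.80). Gbp3 rose by 1.38 and 1.63 and was alike, and the GTPase Tgtp1, which has a near-identical copy, rose by 3.07 and 2.90. Among receptors, kinases and factors of the pathway 0 of 21 were called by edgeR (4.73% lower by level) and 3 had an unadjusted p under 0.05. DESeq2 called 4 lower (19.0%, against 15.1% of all genes) and limma-voom 2 (9.52%, against 5.82%).

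The 2 interferon promoters shown are those of Isg15 at chr4:156200819-156201068 (minus strand), with 3 overlapping matches that begin 78, 72 and 66 bases before the start, and Gbp2 at chr3:142620413-142620662 (plus strand), with 1 match at 59 bases.
Isg15: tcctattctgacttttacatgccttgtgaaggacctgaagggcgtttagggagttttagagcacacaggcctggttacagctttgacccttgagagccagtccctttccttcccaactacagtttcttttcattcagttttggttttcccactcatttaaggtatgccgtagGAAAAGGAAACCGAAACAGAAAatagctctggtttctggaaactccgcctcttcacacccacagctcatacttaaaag
Gbp2: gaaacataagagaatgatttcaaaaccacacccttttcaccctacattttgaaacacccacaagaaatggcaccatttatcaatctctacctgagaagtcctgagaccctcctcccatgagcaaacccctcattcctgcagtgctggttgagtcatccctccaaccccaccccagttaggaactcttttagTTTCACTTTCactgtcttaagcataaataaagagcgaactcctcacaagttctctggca
The interferon motif was present in 21 of 54 antiviral genes with a promoter (38.9%) and in 10 of 11 GTPases (90.9%), against 3.46% of all genes. It was in 9 of 228 lower genes (3.95%), close to the 3.81% of tested genes.

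Most class I antigen presentation genes responded alike. Of 24 MHC class I and immunoproteasome genes 20 rose in each graft, 18 were alike within 2-fold (75.0%, against 39.8% of all tested genes) and none was lower by edgeR, while DESeq2 called 4 lower (16.7%, against 15.1% of all genes) and limma-voom and RLE factors 1 each. B2m, the light chain of class I molecules, was at 4046, 4088 and 4042 CPM in naive and 11568 and 13263 CPM in treated control tumours, against 3202, 3449 and 2766 CPM in naive and 6359 and 8265 CPM in treated Sox2Hi tumours. Treated libraries were above naive ones in both grafts and Sox2Hi treated lay below control treated, with an interaction of -0.39 (interval -1.01 to 0.23), just short of alike. H2-T23, a nonclassical class I gene, was alike at 1.41 and 1.15, the proteasome activator Psme1 at 1.00 and 0.81, and Nlrc5, the class I transactivator, at 1.40 and 1.60. The exception was H2-Q4 (ENSMUSG00000035929, chr17:35379617-35385290), at 19.9, 28.3 and 18.4 CPM in naive and 15.4 and 12.9 CPM in treated control tumours, against 10, 10.8 and 8.60 CPM in naive and 24.7 and 23.7 CPM in treated Sox2Hi tumours. Treatment went with lower levels in control and higher levels in Sox2Hi tumours, without overlap of treated and naive libraries, an interaction of 1.95 (SE 0.30, adjusted p 0.0012). H2-Q genes are near copies of each other, so its counts are uncertain. Like the receptor-gene rate, it was high in control naive and Sox2Hi treated libraries, and its log2 CPM correlated with that rate at r = 0.739 over the 10 libraries. Expected background was 5.01% of its counts, and the interaction of the rate itself was 1.98. The part of the background in this result was not tested.

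Class II genes had 0 calls in 10 by edgeR, DESeq2 and limma-voom, 0 at an unadjusted p under 0.05, a median of -0.04 and 7 undecided. Cd74, the invariant chain, was at 5926, 8185 and 5363 CPM in naive and 13757 and 15208 CPM in treated control tumours, against 6055, 7923 and 5142 CPM in naive and 7673 and 18336 CPM in treated Sox2Hi tumours. The 2 Sox2Hi treated libraries differed by more than 2-fold from each other, and 1 of them lay within the naive range; replicate 2, the higher, also held more of the macrophage markers. H2-Ab1, a class II beta chain, was undecided (0.05, interval -1.02 to 1.12). Of 4 chemokines that interferon induces to attract T cells, 4 rose in control and 3 in Sox2Hi tumours: Cxcl9 by 1.58 and 2.43, Cxcl10 by 2.48 and 2.89, and Ccl5 by 3.04 and 2.97. Cxcl16, a membrane-bound chemokine, rose by 0.56 in control tumours and had 0.31 in Sox2Hi tumours (adjusted p 0.27). None of 4 was called by edgeR, DESeq2 or limma-voom or had an unadjusted p under 0.05, and the interval of Cxcl10 ran from -0.43 to 1.24.

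Housekeeping functions had the highest shares of alike genes. Of 79 cytosolic ribosomal protein genes 76 were alike within 2-fold (96.2%), with a median of -0.06 and 0 calls by edgeR and by limma-voom, 0 at an unadjusted p under 0.05 and 2 by DESeq2. Their level moved on treatment by a median of -0.28 in control and -0.28 in Sox2Hi tumours. Rpl35 and Rplp0 showed -0.07 and -0.12, and Eef1a1, the elongation factor, -0.15. Nuclear genes of oxidative phosphorylation were alike in 71 of 74 (95.9%), with Cox4i1 at -0.20. The 1 lower gene by edgeR (1.35%, 6.49% by level) was Cycs, cytochrome c (-0.82, adjusted p 0.029). DESeq2 called 6 lower (8.11%, against 15.1% of all genes). Subunits of the constitutive proteasome were alike in 32 of 34 (94.1%), among them Psmb6 (-0.07) and the assembly factor Pomp (-0.20). The 1 lower gene by edgeR (2.94%, 7.18% by level) was Psme3, a nuclear activator (-1.41, adjusted p 0.04). DESeq2 called 5 lower (14.7%, against 15.1% of all genes). The 13 mitochondrial messages were less precise, with 6 alike, 0 called by any of the 3 tools, 0 at an unadjusted p under 0.05, and mt-Cytb at 0.16 (interval -0.75 to 1.08).

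Chromatin regulators were alike in 27 of 33 (81.8%), with Kdm5a, a histone demethylase, at -0.32 and Crebbp, a histone acetyltransferase, at -0.46. Heat shock genes were alike in 16 of 22 (72.7%). Immediate early genes of the AP-1 and EGR families had 0 calls in 27, 13 alike and a median of -0.07. In the chromatin, heat shock and AP-1 lists, edgeR called 0 and gave 5, 1 and 3 genes at an unadjusted p under 0.05. DESeq2 called 5, 5 and 3 lower (15.2%, 22.7% and 11.1%, against 15.1% of all genes). With limma-voom it was 2 lower and 2 higher, 1 lower and 1 lower, against 5.82% lower and 18.6% higher of all genes. With RLE factors, 4, 2 and 2 genes of these 3 lists became lower (12.1%, 9.09% and 7.41%, against 10.9% of all genes). Scaled by TMM factors from all genes with a count, which shifted all tested genes by -1.02, the medians of the ribosomal, oxidative phosphorylation and proteasome lists were -1.05, -1.14 and -1.17, so that alike holds relative to the main scaling. The share of alike calls depends on precision and on the size of the difference, and across lists it did not follow level alone. It was 81.8% in chromatin regulators (median 31.3 CPM) and 14.8% in mature neutrophil transcripts (median 537 CPM).

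Among genes with a larger response in Sox2Hi tumours, 8 of the 10 largest at 20 CPM or more rose and fell with the receptor-gene rate over the libraries, at r of 0.870 or more. These were Olfr986, Olfr639, Vmn1r58, Olfr509, Olfr613 and Olfr1247, all olfactory or vomeronasal receptors, Ttn, the giant muscle protein titin, and Hsd3b2, a steroid dehydrogenase. Olfr986 was at 63.8, 84.7 and 47.9 CPM in naive and 27.5 and 26.7 CPM in treated control tumours, against 31.7, 30.0 and 22.8 CPM in naive and 58.3 and 78.9 CPM in treated Sox2Hi tumours. It was high in control naive and Sox2Hi treated libraries and low in control treated and Sox2Hi naive ones, the same grouping as the background rate. Interactions of these 8 ran from 2.27 to 2.55, all above the 1.98 of the background. Of 265 receptor genes tested, 243 were higher (91.7%), and they made up 12.7% of higher calls. For Ttn the expected background exceeded its counts, at 129%, and subtraction left an interaction of 0.

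Sptssb (ENSMUSG00000043461, chr3:69819542-69859940), a small subunit of serine palmitoyltransferase at the first step of sphingolipid synthesis, was at 5.33, 1.61 and 2.56 CPM in naive and 0.433 and 0.298 CPM in treated control tumours, against 44.0, 27.0 and 40.8 CPM in naive and 71.8 and 39.7 CPM in treated Sox2Hi tumours. All 5 Sox2Hi libraries were above all 5 control libraries, and the 2 control treated libraries held the least. Its interaction of 3.70 (SE 0.75, adjusted p 0.0049) combined a fall of 3.12 in control tumours (adjusted p 0.0022), with 0.58 in Sox2Hi tumours (adjusted p 0.27). The control treated levels of 0.433 and 0.298 CPM rest on few reads, and the part of tumour cells in this result was not tested. Other sphingolipid genes were lower: Sgms2, a sphingomyelin synthase, was at 1060.1, 1262 and 883 CPM in naive and 2845 and 2719 CPM in treated control tumours, against 1367, 1019 and 982 CPM in naive and 1232 and 1570.4 CPM in treated Sox2Hi tumours (-1.06, SE 0.30, adjusted p 0.03), and Cers2, a ceramide synthase, gave -0.79 (adjusted p 0.023). The list of 23 thus held 3 lower (13.0%, against 2.84% of all genes and 3.8% by level) and 3 higher (13.0%, against 16.9%). Asah2, a neutral ceramidase, was higher (1.63, adjusted p 0.0012) with 50.5% expected background.

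Cma1, a chymase of mast cells, was at 86.3, 12.9 and 52.2 CPM in naive and 0.578 and 2.38 CPM in treated control tumours, against 33.6, 14.6 and 31.9 CPM in naive and 16.4 and 6.55 CPM in treated Sox2Hi tumours. It fell by 5.04 in control tumours and had -1.22 in Sox2Hi tumours (3.83, SE 1.09, adjusted p 0.029), and libraries within a group differed by several-fold. The 10 mast cell and basophil markers summed to between 0.00693% and 0.0280% of counts in naive and 0.00206% and 0.00339% in treated control tumours, against 0.00784% and 0.0135% in naive and 0.00403% and 0.00797% in treated Sox2Hi tumours. Their part in the result of Cma1 was not tested.

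Cholesterol and fatty acid synthesis had the highest median of the 45 lists, 0.44, with 5 higher of 23 (21.7%, against 16.9% of all genes) and none lower. Acaca, the first enzyme of fatty acid synthesis, was at 14.4, 17.4 and 13.5 CPM in naive and 7.08 and 4.29 CPM in treated control tumours, against 10.2, 9.93 and 8.29 CPM in naive and 12.8 and 10.3 CPM in treated Sox2Hi tumours. It fell in control tumours, where treated libraries lay below naive ones, while Sox2Hi treated libraries lay above Sox2Hi naive ones (1.70, SE 0.34, adjusted p 0.0044). The sterol enzymes Dhcr7 and Lss gave 1.37 and 1.41. Expected background was 51.2%, 21.6% and 32.4% of the reads of these 3 genes, and of the 17 members over 5 times the background 0 were called either way by edgeR in a fit on such genes, which called 13.7% of 8860 genes. Over all 23, edgeR gave 6 at an unadjusted p under 0.05. DESeq2 called 3 higher and 1 lower, against 14.6% and 15.1% of all genes, and limma-voom 4 higher, against 18.6%. Abundant sterol genes were not called: Fdps, of isoprenoid synthesis, fell by 1.51 in control and by 1.00 in Sox2Hi tumours (interval of the difference -0.38 to 1.39), and Msmo1 was alike (-0.15).

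Cell cycle genes fell in both grafts, in 28 and 27 of 36 members, against 33.1% and 6.57% of all genes, by a median of -1.21 and -1.07. Of the 36, 15 were alike (41.7%, against 39.8% of all genes). The interaction was higher in 2, against 16.9% of all genes, and lower in 1 (2.78%, 3.08% by level, against 2.84%). Tyms, thymidylate synthase, was at 97.1, 84.5 and 89.7 CPM in naive and 39.6 and 38.1 CPM in treated control tumours, against 60.4, 70.8 and 73.5 CPM in naive and 56.9 and 54.9 CPM in treated Sox2Hi tumours. Treated libraries lay below naive ones in both grafts, and the control naive libraries were highest and the control treated ones lowest (0.93, SE 0.20, adjusted p 0.0074). Mcm5, of the replicative helicase, was also higher (0.92, adjusted p 0.035), and Hmgb2, a chromatin protein, was lower: it rose by 1.45 in control and 0.51 in Sox2Hi tumours (-0.94, SE 0.21, adjusted p 0.0081).

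Of the 1908 higher genes, 18 had a correlation with the receptor-gene rate under 0.5. Besides Sptssb, 3 of them were chosen after their values were seen. Lars2, the mitochondrial leucyl-tRNA synthetase, was at 246, 318 and 391 CPM in naive and 97.0 and 54.4 CPM in treated control tumours, against 521, 611 and 649 CPM in naive and 404 and 279.5 CPM in treated Sox2Hi tumours. The Sox2Hi naive libraries were highest and the control treated ones lowest. Lars2 fell by 2.07 in control tumours and had -0.80 in Sox2Hi tumours (1.27, SE 0.38, adjusted p 0.039). Gchfr, a regulator of tetrahydrobiopterin synthesis, fell by 2.83 and 1.75 (1.08, adjusted p 0.047). Ppp2r5a, a regulatory subunit of phosphatase 2A, was at 91.9, 112 and 82.8 CPM in naive and 102 and 103 CPM in treated control tumours, against 69.1, 70.3 and 59.2 CPM in naive and 113 and 142 CPM in treated Sox2Hi tumours. It rose by 0.94 in Sox2Hi tumours, against 0.10 in control tumours (adjusted p 0.64), with treated and naive control libraries overlapping (0.85, SE 0.24, adjusted p 0.032). Each of the 3 was called in 2 of 10 fits without a library.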

How the data were processed

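RNA from Tomato+ tumour neutrophils was sequenced in 10 libraries, 2 or 3 a group. The deposited table holds estimated counts per gene as whole numbers, and per the submitters' processing notes kallisto 0.44.0 and mm10 were used. The annotation, strand and summing of transcripts to genes are not given in the sources used here. Of 55481 entries, 96 other sequences (0.000992% to 0.00277% of counts) were left out, leaving 55385 mouse genes. Symbols, positions and exon lengths came from GENCODE M21 (GRCm38), for 55144 of them.

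Genes that averaged 5 CPM or more were scaled by TMM and fitted over all libraries with 4 group terms with edgeR 4.0.16 (R 4.3.3), in the quasi-likelihood test with Benjamini-Hochberg adjustment over all 11274 tested genes. The alternatives were other scalings, filters, DESeq2 1.42.0, limma-voom (limma 3.58.1), background subtraction, replicate blocks and leaving out each library. The fit was tested on simulated data with the same relative spread for every gene. There 90% of 50 genes lowered by 2 log2 units and 88% of 50 raised by 2 were called. CPM in the text are counts relative to TMM-scaled totals, and list scores used log2(CPM + 1). The expected background of a gene is its exon length times the median rate of 1420 receptor genes.

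Named genes were the 10 largest called changes each way with a mean of at least 20 CPM and the same sign in all 10 fits without a library, leaving out immunoglobulin, Gm, Rik and clone names. To these were added, per list, the 2 most abundant members, up to 3 called members with the smallest p-values and up to 2 alike members with the narrowest intervals, and a short preset list (neutrophil, interferon and reporter genes). Members and lists were chosen with earlier results of these data known. In these neutrophil libraries Sox2 itself was at 1.88 to 2.34 CPM in naive and 0.217 and 0.715 in treated control tumours, against 0.738 to 1.31 in naive and 1.02 and 1.09 in treated Sox2Hi tumours. It was thus lower in Sox2Hi than in control naive libraries without overlap, against the order of the group names, which are those of the tumour cells. The scaled receptor-gene rate had that order too, at 0.357 to 0.622 CPM per kb in control naive and 0.242 to 0.269 in Sox2Hi naive libraries. Both were lowest in control treated libraries. The expected background share of Sox2 is not given, and its part in this order was not tested. Sox2 was under 5 CPM, so its interaction was not tested.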

Additional observations from a re-analysis of the deposited data

Results flagged for a closer look

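The difference between the grafts in their response was itself tested, and 2228 genes passed (edgeR, adjusted p under 0.05). All 89 called genes that are named in the report stand out for this reason, and each number here is the interaction in log2 units. Among the largest lower responses, it was -3.46 for Car4, -2.13 for Ypel3, -2.0 for Il23a, -1.89 for Tmem151a, -1.76 for Tnf, -1.71 for Tinagl1, -1.63 for Mfsd14a, -1.62 for Gadd45a, -1.59 for Irf2bpl and -1.59 for Ccr3. Among the largest higher responses, the value was 3.83 for Cma1, 3.70 for Sptssb, 2.55 for Olfr986, 2.55 for Olfr639, 2.35 for Vmn1r58, 2.32 for Olfr509, 2.32 for Olfr613, 2.31 for Olfr1247, 2.29 for Ttn and 2.27 for Hsd3b2. For genes of tumour neutrophil states and checkpoints it was -1.26 for Tnfrsf23, -1.46 for Ero1l, -1.02 for Clec5a, -1.09 for Lilrb4a and -1.05 for Pdcd1lg2. Lysosomal and autophagy genes gave -2.37 for Atp6v0d2, -0.91 for Atp6v0c, -0.96 for Atg3, -0.68 for Rb1cc1 and -0.82 for Gabarap. In glycolysis and hypoxia genes the values were -0.92 for Eno1, -1.06 for Aldoa, -1.16 for Pkm, 1.89 for Plod2, -1.40 for Ankrd37 and -0.99 for Hilpda. Inflammatory genes and chemokines had -1.29 for Il1a, -0.89 for Tnfaip3, -1.16 for Tnip1, -1.07 for Cflar, -0.61 for Bax, -1.36 for Ccl2, -1.14 for Cxcl1, -1.37 for Fpr1, -0.86 for Irak2, 1.51 for Cxcl12 and 0.90 for Tlr3. Among granule and maturation genes the interaction was -1.70 for Cd177, -1.04 for Olfm4 and -0.76 for Cd24a. Stress, iron, survival and related genes gave -1.0 for Ddit3, -0.74 for Atf4, -0.68 for Herpud1, -1.18 for Ncoa4, -0.68 for Tfrc, -1.19 for Gclm, -1.46 for Bcl2l1, -0.73 for Bhlhe40, 1.24 for Klrb1b, 1.13 for Tgfb1 and -1.41 for Psme3. For translation, splicing, actin and respiration it stood at -1.0 for Eif4ebp1, -0.81 for Eif4a2, -0.84 for Eif1, -0.71 for Srsf7, -0.69 for Hnrnpc, -0.91 for Srsf5, -0.83 for Msn, -0.80 for Capg, -0.96 for Gsn and -0.82 for Cycs. Lipid and cell cycle genes had 1.63 for Asah2, -0.79 for Cers2, -1.06 for Sgms2, 1.70 for Acaca, 1.37 for Dhcr7, 1.41 for Lss, 0.93 for Tyms, -0.94 for Hmgb2 and 0.92 for Mcm5. Of the interferon and class I genes, values were -1.39 for Slfn2, 1.04 for Slfn9 and 1.95 for H2-Q4. The genes chosen after their values were seen had 1.27 for Lars2, 1.08 for Gchfr, 0.85 for Ppp2r5a, -0.78 for Gpi1, -0.85 for Gapdh and -0.90 for Ldha.

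The tdTomato reporter sequence, which enters no comparison, had between 135 and 514 counts in the 10 libraries. A count of 0 allows up to 3 counts, which is a limit of counting error only. Every library was thus above that limit.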

How the results depend on the processing

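The 2228 calls became 8149 with edgeR's default filter and TMM factors from 29648 genes, 6556 with all genes that have a count, 137 with at least 50 CPM, and 3355 with DESeq2. They became 1214 in genes over 5 times the expected background, 1308 with that background subtracted, and 1027 with both, the last chosen after seeing the data. In the same order of 7 settings lower calls, 320 in the report, were 4806, 5100, 7, 1708, 287, 249 and 156, and higher calls, 1908 in the report, were 3343, 1456, 130, 1647, 927, 1059 and 871. Lower calls were also 1231 with RLE factors, 111 with library totals alone and 656 with limma-voom. Leaving out 1 library gave 1542 to 2581 calls, 1354 to 1910 higher and 68 to 851 lower. Fits with 1 treated library assume that it varies like the other groups.

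The control response, 6456 calls, became 10078 with the default filter and 1658 at 50 CPM. The Sox2Hi response, 2433 calls, became 1070 with the default filter, 899 with all genes, 965 at 50 CPM and 3765 with limma-voom, and 199 to 3317 without 1 library. Single values turned with TMM factors from all genes with a count: Hk1 to -0.96, Tlr3 to -0.13, Tyms to -0.087, Mcm5 to -0.089, Slfn9 to -0.0095 and Ppp2r5a to -0.20. With the default filter Hk1 turned to -0.75 and Actb to -0.79, and Ttn to 0 with background subtracted. Those factors shifted all tested genes by -1.02 and -0.82. For the 89 called genes, 1533 of 2082 values under the alternatives kept call and direction. The cause of the other changes was not tested. In simulated interactions of 1 log2 unit, 6% of 50 lower and 20% of 50 higher genes were called. Every simulated gene had the same relative spread between libraries (0.212), so these rates do not carry over to genes of other spread. The 320 lower genes of the data had a median interaction of -0.93.

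Whether numbers in the titles pair libraries differed by group. Deviations correlated at 0.34 to 0.41 in the 3 same-numbered pairs of naive libraries, where all 6 were closest to their own number in the other graft, and at 0.22 to 0.28 in 4 pairs of control treated with naive libraries. In the 6 pairs with a Sox2Hi treated library they ran from -0.32 to 0.0050, so that 7 of 13 pairs exceeded 0.1 and the numbers were not taken as a pairing. With the title number as a replicate block there were 2709 calls, 608 of them lower and 2101 higher. With the description number as a block, where 1 control treated library numbered 2.2 was taken as 2, there were 1965, 223 lower and 1742 higher. For the control response the block fits gave 6362 and 6101 calls, and for the Sox2Hi response 1993 and 2919. Crossing the Sox2Hi treated numbers, chosen after seeing the data, gave 2513 calls, 490 lower and 2023 higher, with 6184 and 1640 for the treatment responses. A covariate for low or high Ddx3y, added after seeing the data, gave 2130 calls, 286 lower and 1844 higher.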
